A study of Mus musculus with 4 samples.

Results

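The genes described here are 32 components of the smooth muscle contractile apparatus, taken by symbol from the 32285 genes of the count matrices, and all 32 were present in every matrix. They comprise 9 genes of the actin filament (Acta2, Actg2, Tagln, Cald1, Tpm1, Tpm2, Cnn2, Smtn and Lmod1) and 6 genes of myosin and its phosphorylation (Myl9, Myl6, Mylk, Ppp1r12b, Ppp1r14a and Hspb6). A further 9 encode crosslinkers and scaffolds (Flna, Actn1, Csrp1, Csrp2, Synpo2, Nexn, Ldb3, Filip1l and Des) and 4 act in adhesion and matrix (Vcl, Itga8, Npnt and Aoc3). The last 4 are the calcium handling and channel genes Pln, Kcnmb1 and Cacna1c and the transcriptional coactivator Myocd. The study profiled cells of the mouse aorta by 10x Genomics 3' single-cell RNA sequencing in 4 libraries, 1 per group, after enzymatic digestion for 90 min at 37 °C. Aortas of WT and LysM-DKO mice came from normal diet, and aortas of WT/ApoE-/- and LysM-DKO/ApoE-/- mice from western diet. The libraries are called WT normal, LysM-DKO normal, WT western and LysM-DKO western below. The study's title concerns epsins, and LysM, the promoter of lysozyme M, is used to drive Cre recombinase in myeloid cells, so smooth muscle is not the cell type in which such a driver acts. The sources used here do not say how many animals entered each library. Both western libraries carry ApoE-/- and both normal-diet libraries do not, so diet and ApoE genotype cannot be told apart. With 1 library per group, differences between groups have no replicate check and carry no test. Intervals given with them are exact 95% intervals that cover counting error only.

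In a smooth muscle cell, myosin pulls on actin filaments that are anchored to dense bodies and to adhesions at the cell surface. Calcium entering through channels activates myosin light chain kinase, which phosphorylates the regulatory light chain, and myosin phosphatase reverses this. Serum response factor with its coactivator myocardin transcribes many of these genes through the CArG box, a short sequence of CC, 6 bases that are A or T, and GG. In atherosclerosis, smooth muscle cells are known to lose the contractile programme and to take on a matrix-producing, fibroblast-like state, often called modulated.

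The CArG box was searched for in RefSeq promoter windows on build GRCm38.p6, from 250 bases before to 50 bases after each transcription start, on both strands, between which the box is symmetric. Windows were found for 26 of the 32 members, and none was matched for Tagln, Actg2, Csrp2, Myocd, Nexn and Aoc3. An exact box was present in 6 of the 26 members (23.1%) and in 488 of all 27025 genes with a window (1.81%). A box in which 1 of the 6 middle bases is G or C was present in 4 members (15.4%), against 9.69% of all genes. The sequences below show the 6 exact boxes and the 2 near matches of Acta2, each with 10 bases on either side and credited to RefSeq, printed 5′ to 3′ on the strand of the gene with the box in capitals.
Myl9, chr2:156775293-156775322, plus strand: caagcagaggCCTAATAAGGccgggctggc
Vcl, chr14:20929161-20929190, plus strand: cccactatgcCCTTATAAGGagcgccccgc
Cnn2, chr10:79988534-79988563, plus strand: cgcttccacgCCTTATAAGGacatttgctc
Filip1l, chr16:57549170-57549199, plus strand: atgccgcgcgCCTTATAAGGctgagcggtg
Ldb3, chr14:34588697-34588726, minus strand: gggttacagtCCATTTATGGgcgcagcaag
Myl6, chr10:128493040-128493069, minus strand: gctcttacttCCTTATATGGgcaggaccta
Acta2, first near match, chr19:34255438-34255467, minus strand: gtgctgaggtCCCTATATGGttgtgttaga
Acta2, second near match, chr19:34255388-34255417, minus strand: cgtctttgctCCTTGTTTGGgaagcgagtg
The box of Vcl, Cnn2 and Filip1l has the same 10 bases. The boxes of Filip1l and Myl6 and both near matches of Acta2 lie inside the span of the annotated gene, and the other 4 boxes lie before it. Vcl codes for the adhesion protein vinculin, Cnn2 for a calponin and Filip1l for a filamin-interacting protein. A match describes letters in a window and does not show binding, and a window without one says only that these letters are not in it.

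Barcodes with at least 2000 UMIs, of which at most 10% were mitochondrial, were kept: 6294 in WT normal, 6087 in LysM-DKO normal, 7149 in WT western and 7748 in LysM-DKO western, with 34789794 to 56332682 UMIs per library. Smooth muscle was taken as barcodes with at least 5 UMIs of Myh11 and Cnn1 together, the smooth muscle myosin heavy chain and calponin, with at most 2 of the macrophage genes C1qa, C1qb and C1qc and at most 1 of the endothelial genes Pecam1 and Cdh5. These were divided by Rgs5, a regulator of G protein signalling found in pericytes and in some smooth muscle: at most 1 UMI (Rgs5-low) or at least 5 (Rgs5-high). In the order WT normal, LysM-DKO normal, WT western and LysM-DKO western, which all lists of 4 values below follow, there were 1834, 1475, 1825 and 2009 Rgs5-low barcodes and 854, 678, 1950 and 3493 Rgs5-high barcodes. Modulated cells (Lum at least 2, Vcam1 at least 1, Myh11 and Cnn1 at most 2) numbered 174, 198, 623 and 232, and fibroblasts (Pdgfra and Serpinf1 at least 3, the same limit on Myh11 and Cnn1) numbered 357, 359, 355 and 401. The last 2 classes overlap: 139, 149, 261 and 179 modulated barcodes were also fibroblasts by the rule. Myh11, Cnn1 and Rgs5 chose the classes and are no findings here. Levels are in CPM, the UMIs of a gene for every 1000000 UMIs of the class in a library, and since a 3' kit counts 1 end of each transcript they are not divided by length.

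Several facts of the libraries bear on what follows. In the macrophage class (at least 5 C1q UMIs), the class a LysM driver would reach, 3' UMIs of the epsin genes were few: Epn1 stood at 92.6, 64.9, 60.0 and 53.3 CPM and Epn2 at 46.3, 37.1, 10.1 and 14.5, from 6 to 130 UMIs each, and the intervals of LysM-DKO and WT overlapped on each diet. In smooth muscle Epn2 stood at 91.1, 89.1, 128 and 92.7 CPM in Rgs5-low and 114, 121, 126 and 91.0 in Rgs5-high barcodes. On western diet its intervals in LysM-DKO and WT did not overlap in either class (87.8 to 97.8 against 122 to 135, and 87.5 to 94.7 against 120 to 133). On normal diet they overlapped, as did those of Epn1 on both diets. The cause was not tested. Such 3' reads need not cover a deleted exon, so they do not check the genotype labels. Sex differed between the diets: Xist, transcribed from the inactive X chromosome, was at 900, 934, 0.956 and 0.491 CPM in Rgs5-low barcodes, and the Y-linked Ddx3y at 0, 0, 114 and 128. The normal-diet matrices were made with another Cell Ranger version than the western ones, per the file headers. Apoe itself stood at 218.6, 530.4, 3.04 and 1.40 CPM in Rgs5-low smooth muscle. Pairs of libraries shared 38 to 129 barcodes, of which 0 to 6 lay in the smooth muscle classes of both.

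The Rgs5-low class was not equally pure in the 4 libraries. In the normal-diet Rgs5-low barcodes the share of a barcode's UMIs that came from Myh11 and Cnn1 formed a low group and a high group, whereas the western Rgs5-low barcodes and the Rgs5-high barcodes showed no separate low group. Barcodes with under 3 such UMIs per 1000 made up 33.2%, 51.3%, 20.4% and 7.32% of Rgs5-low barcodes, but 7.03%, 12.5%, 9.13% and 3.18% of Rgs5-high barcodes. In the normal-diet libraries the low-share Rgs5-low barcodes also held markers of other cells. Summed B cell markers stood at 373 and 578 CPM in them, against 13.3 and 43.6 in the other Rgs5-low barcodes, T cell markers at 287 and 308 against 6.59 and 18.6, and erythroid markers at 22200 and 24900 against 1920 and 2070. In LysM-DKO western these 3 lists were also higher in the low-share barcodes but at lower levels (10.2 against 0.152, 18.5 against 1.06 and 227 against 5.77), and in WT western B and T cell markers were higher (20.1 against 5.24 and 13.5 against 7.41) and erythroid markers lower (31.1 against 190). Fibroblast markers were higher in the low-share barcodes of all 4 libraries, at 4540, 5480, 12400 and 8110 against 2360, 2450, 3490 and 2280. Most comparisons in smooth muscle are therefore given for all barcodes of the rule and again, at least as a median, for those with at least 3 per 1000. This limit was chosen after seeing the data and selects on contractile content, so it narrows differences of the members between libraries by construction. A limit of 2 per 1000, and a setting without mixed and top 5% barcodes, are given where they differ. The latter uses no contractile gene. It leaves out smooth muscle barcodes holding Ptprc or at least 3 UMIs of Pdgfra and Serpinf1, and barcodes in the top 5% of UMIs.

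**Figure D1:**
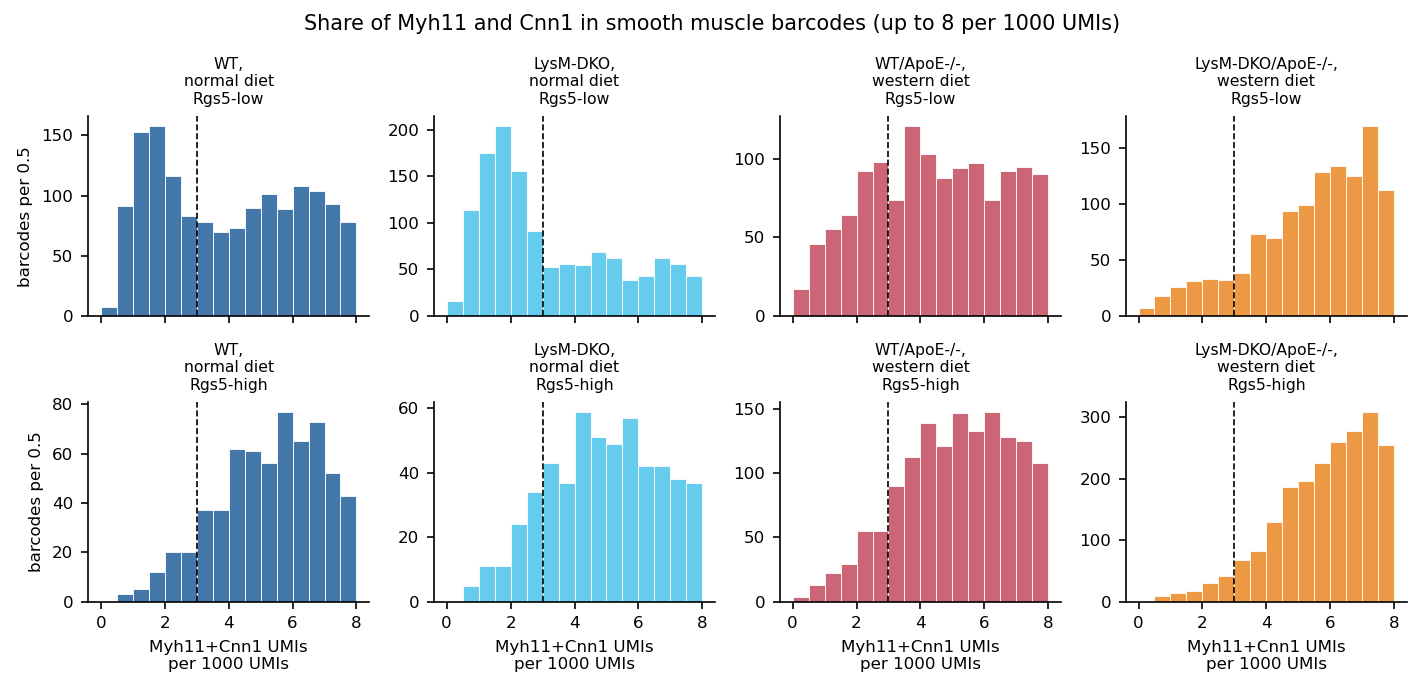
Histograms of the share of each smooth muscle barcode's UMIs that came from Myh11 and Cnn1 (per 1000 UMIs, shown up to 8), for Rgs5-low and Rgs5-high barcodes in the 4 libraries, with a dashed line at 3 per 1000. In LysM-DKO normal 51.3% of Rgs5-low barcodes lie below the line and in LysM-DKO western 7.32%.

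The 32 members together made up 5.68%, 4.61%, 6.39% and 7.01% of all UMIs in Rgs5-low smooth muscle and 6.60%, 6.60%, 6.70% and 7.21% in Rgs5-high smooth muscle. The spread between libraries thus lay mainly in the Rgs5-low class. With at least 3 Myh11 and Cnn1 UMIs per 1000 the Rgs5-low shares were 6.87%, 6.86%, 7.52% and 7.35%, while the barcodes under that limit held 1.79%, 1.51%, 2.75% and 2.98%. After every barcode had been thinned at random to 2000 UMIs, the median Rgs5-low barcode held 113, 65, 137 and 145 member UMIs, and its lower quartile stood at 33, 23, 90 and 121. The same median was 131, 132, 135 and 147 in Rgs5-high barcodes.

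Among the actin filament genes the most abundant was Acta2, smooth muscle alpha-actin (chr19:34241090-34255590 on GRCm38, minus strand), at 16390, 12500, 17840 and 18970 CPM in Rgs5-low smooth muscle. Tagln, which encodes the actin-binding protein SM22 alpha, followed at 8187, 7065, 12130 and 12410. For both genes LysM-DKO normal was the lowest library and LysM-DKO western the highest. With the limit of 3 per 1000 Acta2 stood at 20090, 19100, 21430 and 20020, and Tagln at 9989, 10760, 14150 and 12960, so that Tagln was still higher in both western libraries than in both normal-diet libraries. Acta2 and Actg2 code for near-identical actins. How reads that match both genes were handled is not given in the sources used here, so the level of Actg2 (144.6, 117.6, 180.0 and 211.3) is uncertain.

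Of the myosin genes Myl6, the essential light chain found in smooth and non-muscle myosin, was the most abundant, at 6693, 5683, 6434 and 7410 CPM. Among crosslinkers and scaffolds Csrp2, a LIM protein of smooth muscle, stood at 2500, 2381, 3147 and 3423 and Flna, the actin crosslinker filamin A, at 2435, 1927, 1913 and 2529. Itga8, the integrin alpha 8 chain, led the adhesion genes at 1467, 1004, 2059 and 2154. Myocd, the coactivator myocardin, was measured at 237.4, 190.2, 243.3 and 261.9. Kcnmb1, the beta subunit of the large-conductance calcium-activated potassium channel, led the calcium and channel genes at 115.9, 105.2, 129.0 and 159.4. Pln, phospholamban, which inhibits the calcium pump of the sarcoplasmic reticulum, stood at 21.14, 35.50, 25.80 and 25.87 and was the lowest member in every library but LysM-DKO normal. There Cacna1c, which codes for the pore subunit of the L-type calcium channel, was lower at 32.65, with overlapping counting intervals. All of these lie far above the level that 3 counts would give in the Rgs5-low sums, which was at most 0.330 CPM.

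**Figure D2:**
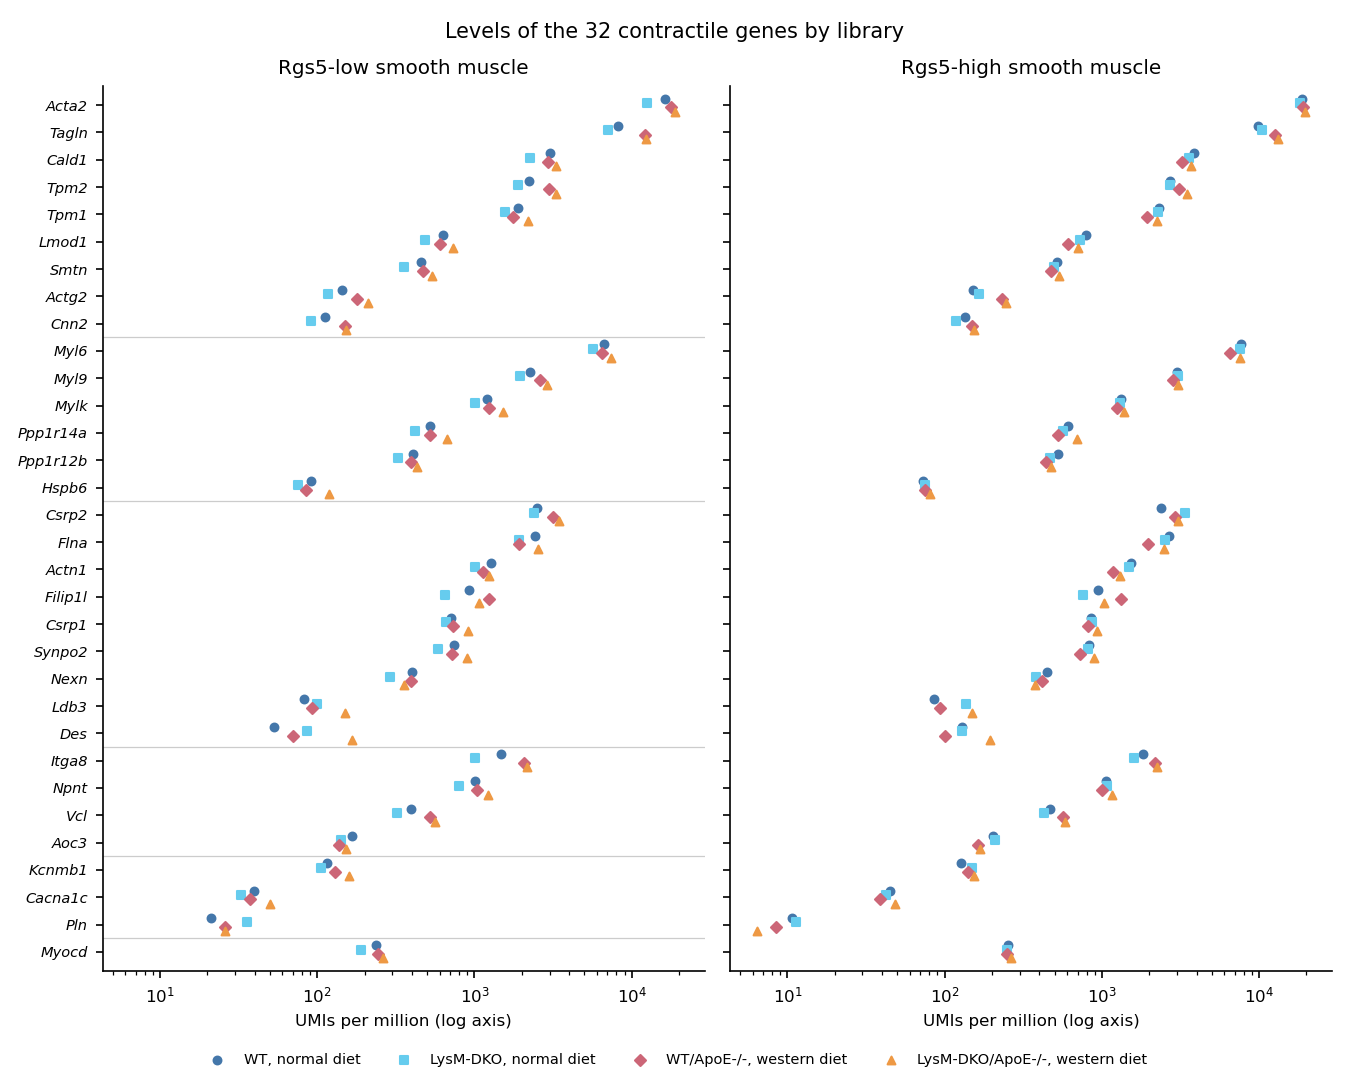
CPM (log axis) of the 32 members in Rgs5-low and Rgs5-high smooth muscle, 1 point per library, with grey lines between roles. The 4 libraries lie close together for most members, and Pln is the lowest gene in Rgs5-high smooth muscle, with 6.43 to 11.33, and in Rgs5-low smooth muscle, with 21.14 to 35.50, except in LysM-DKO normal, where Cacna1c lies lower at 32.65.

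Variation among barcodes was described after thinning. In thinned barcodes Acta2 was detected in 99.51%, 99.05%, 99.56% and 99.70% of Rgs5-low cells, and its Fano factor (variance over mean, about 1 for pure counting noise) was 14.3, 18.2, 10.4 and 6.27. Its correlation with the sum of the other members over barcodes of 1 library was 0.87, 0.90, 0.82 and 0.67. These points share the library and the thinned depth, and the order of the Fano factors follows that of the shares of low-share barcodes. In contrast, Des, which encodes the intermediate filament protein desmin, was detected in 5.83%, 11.0%, 8.33% and 17.8% of thinned Rgs5-low barcodes, with Fano factors of 1.76, 1.88, 2.52 and 2.36 and correlations with the other members of only 0.12 to 0.16. Pln was found in 2.89%, 5.63%, 4.33% and 4.03% of them, with Fano factors of 1.40 to 2.60. In lymphocytes, thinned alike and with median depths of 3374, 3305, 2485 and 2697 UMIs (6852, 5346, 5779 and 6800 in Rgs5-low barcodes), Acta2 was found in 98.7%, 98.1%, 79.3% and 85.7%, so its detection does not mark smooth muscle here and only its level does. Des was found in 2.23%, 4.33%, 2.24% and 4.76% of lymphocytes and Pln in 0.186%, 0.188% and 0.280% of those in the first 3 libraries, all below the Rgs5-low shares of the same library.

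Rgs5-high and Rgs5-low smooth muscle could be tested, because each library gives 1 sum per class. In edgeR's quasi-likelihood test with the library as a block, 262 of 13507 genes passed an adjusted p of 0.05, and of the 32 members 1 fell and 0 rose. The background was 1.09% of genes called higher and 0.851% called lower. The gene that fell was Pln (chr10:53337667-53345987, plus strand), at 10.76, 11.33, 8.45 and 6.43 CPM in Rgs5-high against 21.14, 35.50, 25.80 and 25.87 in Rgs5-low smooth muscle. The levels of the classes did not overlap in any pairing of libraries. The fitted log2 ratio was -1.59 (SE 0.156, edgeR adjusted p = 0.0076), and the ratios in the single libraries were 0.509, 0.319, 0.328 and 0.249. Pln was the only member more than 1.5 fold lower in all 4 libraries, as were 0.348% of all genes. The call was kept in each fit that left out 1 library and was lost without the library block, at a log2 ratio of -1.57 and an edgeR adjusted p of 0.053. Reads of Pln and of Cep85l, which lies across it on the other strand, are counted apart only as far as the counting used strand.

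Pln is also a gene of cardiac and slow skeletal muscle. Summed markers of striated muscle (8 genes, among them Tnnt2, Actc1 and Ttn) stood at 93.89, 97.83, 71.94 and 99.62 CPM in Rgs5-low and at 44.2, 76.65, 25.96 and 36.97 in Rgs5-high smooth muscle, with Myl2 at 0 in 5 of the 8 sums and Myh6 in 1. The striated markers were thus lower in Rgs5-high smooth muscle in each library, as Pln was, and their part in its difference was not tested. Pericyte markers stood at 556.4, 608.1, 641.4 and 572.2 in the Rgs5-high and 457.9, 418.9, 563.4 and 511.9 in the Rgs5-low class, with Kcnj8, a potassium channel of pericytes, among the genes called higher (log2 ratio 0.79, edgeR adjusted p = 0.0092).

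The other members differed little between the classes. Of the 32, 30 had a positive log2 ratio (48.2% of all genes had) with a median of 0.18, against -0.01 over all genes, and 18 were higher in all 4 libraries, as were 14.9% of all genes. Without adjustment 17 members had p under 0.05, as had 18.3% of all genes, and 15 of them were higher, as were 7.55% of all genes. The highest ratio was that of Des, at 129.4, 128.9, 100.6 and 195.4 CPM in Rgs5-high and 53.28, 85.74, 70.55 and 167.5 in Rgs5-low smooth muscle. Its log2 ratio was 0.63 (SE 0.152, edgeR adjusted p = 0.093), with 1.28, 0.59, 0.51 and 0.22 in the single libraries. The actin-binding caldesmon gene Cald1 (log2 ratio 0.33, SE 0.090), the regulatory light chain gene Myl9 (0.32, SE 0.098) and the amine oxidase gene Aoc3 (0.30, SE 0.071) came next, with edgeR adjusted p values of 0.128, 0.171 and 0.087. The log2 ratio of Acta2 was 0.21 (SE 0.090, edgeR adjusted p = 0.279). All 9 actin filament genes, all 9 crosslinkers and scaffolds, all 4 adhesion genes and Myocd were on the higher side, with 0 called. Hspb6, a small heat shock protein that takes part in relaxation, was the only other member lower in all 4 libraries (13.6% of all genes were): 72.47, 75.24, 75.28 and 81.13 CPM in Rgs5-high and 91.22, 75.52, 84.97 and 118.5 in Rgs5-low smooth muscle, with a log2 ratio of -0.28 (SE 0.085, edgeR adjusted p = 0.169). Csrp2 and Filip1l had the lowest positive ratios, 0.04 and 0.08.

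**Figure D3:**
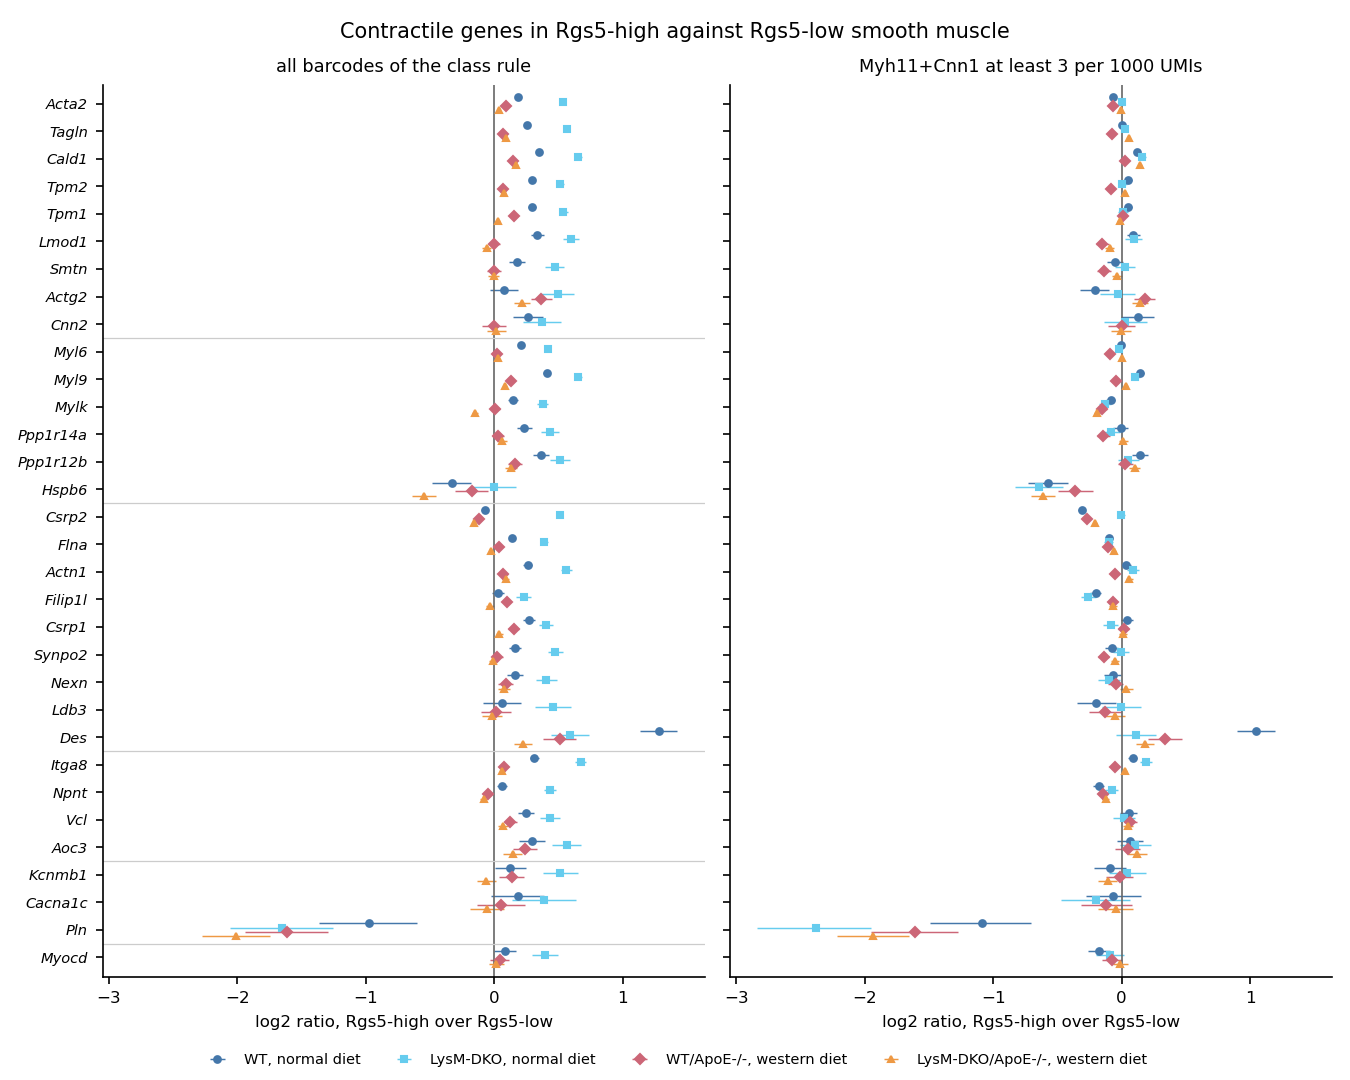
Log2 ratio of Rgs5-high to Rgs5-low smooth muscle for the 32 members, 1 point per library, for all barcodes of the rule (left) and for barcodes with at least 3 Myh11 and Cnn1 UMIs per 1000 (right). Pln lies lowest in both panels, between -0.97 and -2.01 on the left, while the small positive ratios of most members on the left move to around 0 on the right.

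Which of these differences held depended on the tool, the filter and the low-share barcodes. On all barcodes of the rule, DESeq2 and edgeR without a low-count filter each called 6 members higher (Des, Ppp1r12b, Myl9, Cald1, Actg2 and Aoc3) and Pln lower. In either direction they called 541 of 13507 and 1213 of 23592 genes. With at least 3 Myh11 and Cnn1 UMIs per 1000 the median log2 ratio of the members was -0.04, 11 were positive, and edgeR called 2 higher (Des and Cald1) and 7 lower (Npnt, Hspb6, Pln, Csrp2, Mylk, Filip1l and Flna), against backgrounds of 2.64% and 3.0%. With 2 per 1000 it called 2 higher and 2 lower (Hspb6 and Pln), against 2.54% and 2.86%. Without mixed and top 5% barcodes the median was 0.02, with 5 called higher (Des, Ppp1r12b, Myl9, Cald1 and Aoc3) and 2 lower (Hspb6 and Pln), against 2.67% and 3.17%. Pln was called lower in each of these settings, with a log2 ratio of -1.77 (edgeR adjusted p = 8.0e-06) at 3 per 1000. Hspb6 at that limit stood at 75.16, 75.13, 78.82 and 81.61 in Rgs5-high and 111.9, 117.3, 101.2 and 124.6 in Rgs5-low smooth muscle, and the classes did not overlap.

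Of 46 further contractile genes listed by role, 37 had a positive ratio and 1 passed the test: Kcnma1, the pore subunit of the channel that Kcnmb1 modulates, rose by a log2 ratio of 0.45 (edgeR adjusted p = 0.032). Of 15 tested genes of the serum response factor and myocardin axis, 1 rose, the homeobox gene Prrx1 (0.43, edgeR adjusted p = 0.030), and 7 were positive. Of 17 dissociation stress genes, 1 rose, Hspb1 (0.61, edgeR adjusted p = 0.019).

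LysM-DKO was compared with WT within each diet, which asks whether smooth muscle differs when the deletion is driven in myeloid cells. On normal diet, Rgs5-low smooth muscle of LysM-DKO had lower levels of 29 of the 32 members, with a median log2 ratio of -0.30 against 0.00 over all genes, of which 49.6% were lower. None of the 29 was more than 1.5 fold lower (3.6% of all genes were), and 2 members, Pln and Des, were more than 1.5 fold higher (9.56% of all genes were). Pln stood at 35.50 in LysM-DKO and 21.14 in WT, a log2 ratio of 0.75 (interval 0.51 to 0.98), and Des at 85.74 and 53.28, a log2 ratio of 0.69 (0.54 to 0.84). The lowest ratios were those of Itga8 (-0.55), Filip1l (-0.51), Nexn (-0.47) and Cald1 (-0.41), and Acta2 was at -0.39 (-0.40 to -0.38). On western diet the direction was the opposite: 30 of 32 members were higher in LysM-DKO, with a median log2 ratio of 0.17 against 0.00 over all genes, of which 49.8% were higher. Des (167.5 against 70.55, log2 ratio 1.25, 1.13 to 1.36) and Ldb3 (150.2 against 92.53, log2 ratio 0.70, 0.59 to 0.81) were more than 1.5 fold higher, as were 4.73% of all genes, and 0 members were more than 1.5 fold lower, against 7.3%. Next came Hspb6 (0.48) and the calcium channel gene Cacna1c (0.42), and the lowest were Filip1l (-0.21), Nexn (-0.14), Pln (0.00) and Cnn2 (0.01).

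These shifts of the whole set shrank without the low-share barcodes. With at least 3 per 1000 the median log2 ratio was 0.01 on normal diet, with 15 members lower (51.2% of all genes were), and 0.03 on western diet, with 19 higher (49.1% of all genes). With 2 per 1000 the normal-diet median was -0.08, and without mixed and top 5% barcodes it was -0.08, and 0.09 on western diet. B cell markers in the whole Rgs5-low class stood at 97.93 in WT normal and 268.3 in LysM-DKO normal and at 8.78 and 0.911 in the western libraries, and erythroid markers at 6700, 11650, 152 and 22.6. Fibroblast markers stood at 5604 in WT western and 2725 in LysM-DKO western. Their part in the shift of the set was not tested. In Rgs5-high smooth muscle, where low-share barcodes were fewer, the median was -0.02 on normal diet, with 21 of 32 lower against 49.8% of all genes, and 0.13 on western diet, with 29 of 32 higher against 46.9%. With the limit of 3 per 1000 these medians were -0.004 and 0.064. On western diet 27 members were then higher and 5 lower, against 5774 of 12188 genes higher.

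**Figure D4:**
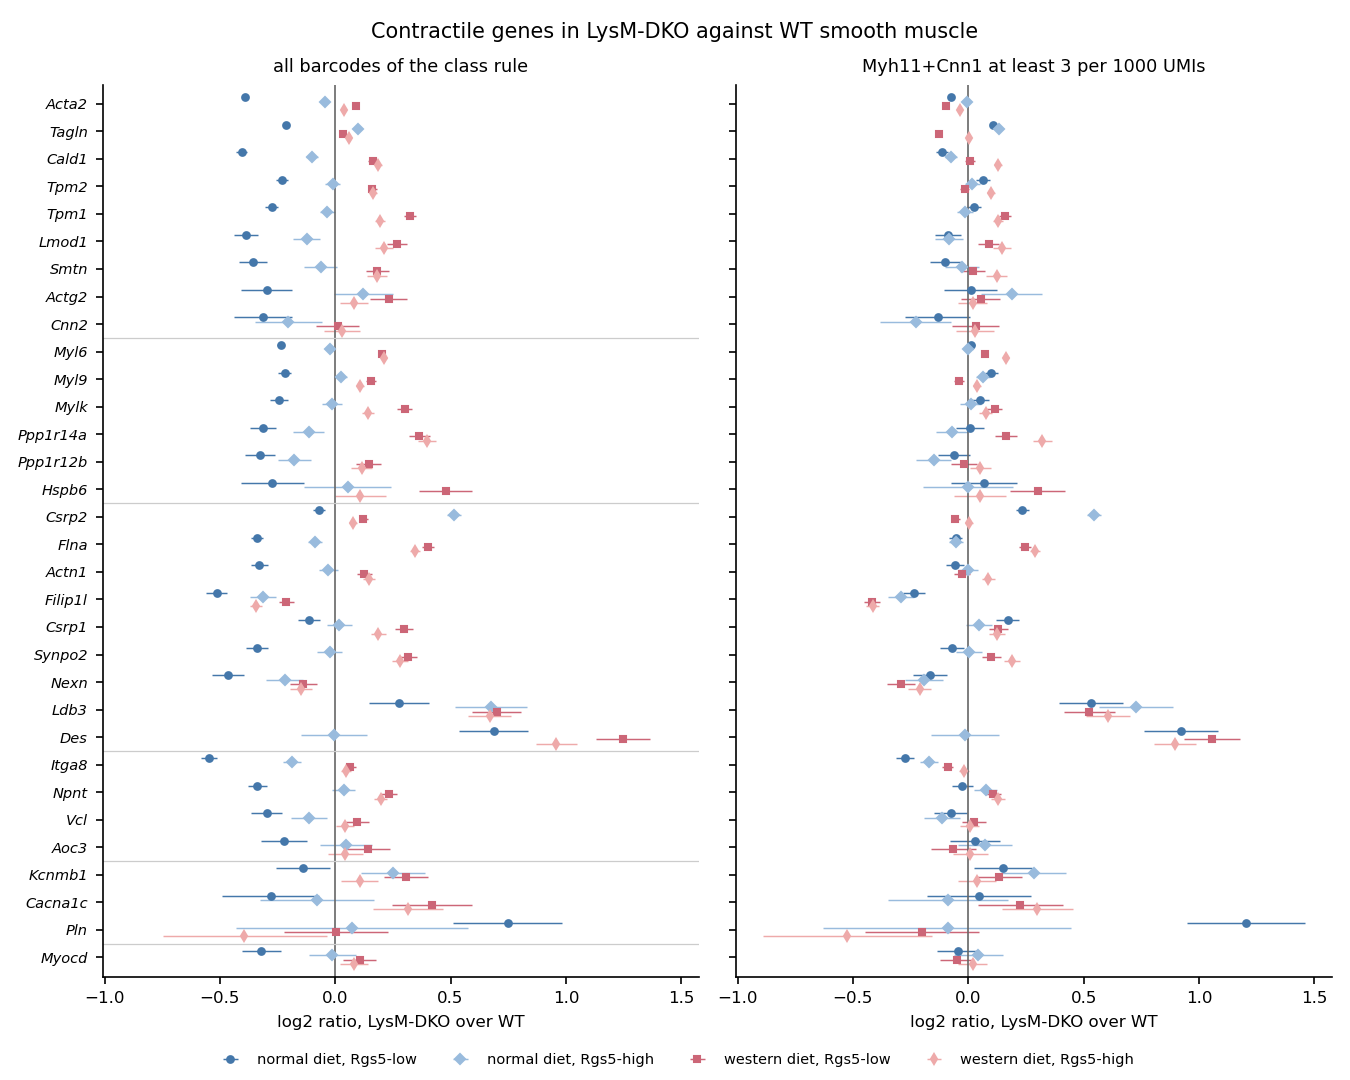
Log2 ratio of LysM-DKO to WT for the 32 members by diet and smooth muscle class, with bars for exact 95% counting intervals, for all barcodes of the rule and for those with at least 3 Myh11 and Cnn1 UMIs per 1000. In Rgs5-low smooth muscle on normal diet the members move from a median of -0.30 to 0.01 between the settings, while Ldb3 stays above 0 and Filip1l and Nexn below 0 in all panels.

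In all 4 contrasts of genotype, that is on both diets and in both classes, with and without the limit of 3 per 1000, 1 member was higher in LysM-DKO, as were 7.5% of all genes, and 2 were lower, as were 9.32%. These counts are below the shares of all genes, and the values of the 3 are given as a description. Ldb3 (chr14:34526603-34588682, minus strand), which codes for a Z-disc and dense-body protein that binds alpha-actinin, stood higher in LysM-DKO throughout. Its levels were 81.90, 99.26, 92.53 and 150.2 in Rgs5-low and 85.53, 136.5, 93.41 and 148.6 in Rgs5-high smooth muscle. The log2 ratios were 0.28 (0.15 to 0.41) and 0.70 on normal and western diet in Rgs5-low, and 0.67 (0.52 to 0.83) and 0.67 (0.58 to 0.76) in Rgs5-high smooth muscle. With the limit of 3 per 1000 they were 0.53, 0.52, 0.73 and 0.60. In Rgs5-high smooth muscle Ldb3 was past 1.5 fold on both diets, as were 3.75% of all genes on normal and 4.24% on western diet, and each LysM-DKO library lay above both WT libraries in both classes.

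Filip1l and Nexn stood lower in LysM-DKO throughout. Filip1l (chr16:57353093-57573126, plus strand) codes for a filamin-interacting protein and overlaps Cmss1 on the other strand. Its levels were 924.2, 647.0, 1230 and 1062 in Rgs5-low and 943.5, 758.8, 1317 and 1038 in Rgs5-high smooth muscle. Its log2 ratios in Rgs5-high smooth muscle were -0.31 (-0.37 to -0.26) and -0.34 (-0.37 to -0.32), and with the limit of 3 per 1000 the Rgs5-low ratios were -0.24 and -0.42. Both western libraries lay above both normal-diet libraries. Nexn (chr3:152236982-152266350, minus strand), which codes for the actin-binding protein nexilin, stood at 398.3, 288.5, 393.7 and 357.8 in Rgs5-low and 445.1, 382.4, 418.5 and 377.4 in Rgs5-high smooth muscle, with log2 ratios of -0.22 (-0.30 to -0.14) and -0.15 (-0.20 to -0.10) in the latter. Neither gene passed 1.5 fold in any of these contrasts.

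Des did not follow 1 pattern over the classes. It was higher in LysM-DKO in Rgs5-low smooth muscle on both diets and in Rgs5-high smooth muscle on western diet (195.4 against 100.6, log2 ratio 0.96, 0.87 to 1.05), but not in Rgs5-high smooth muscle on normal diet (128.9 against 129.4, log2 ratio -0.01, -0.15 to 0.14). With the limit of 3 per 1000 its Rgs5-low ratios were 0.92 and 1.06. The difference between these contrasts was not tested. Pln was higher in LysM-DKO normal than in the other 3 libraries in Rgs5-low smooth muscle (323 UMIs there), and with the limit of 3 per 1000 it stood at 23.26, 53.51, 27.46 and 23.90, a normal-diet log2 ratio of 1.20 (0.95 to 1.46). Csrp2 was higher in LysM-DKO in Rgs5-high smooth muscle on normal diet (3391 against 2375 CPM, log2 ratio 0.51, 0.48 to 0.54).

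Other lists moved with the members. In Rgs5-low smooth muscle on normal diet 39 of 45 further contractile genes were lower in LysM-DKO, with a median log2 ratio of -0.24, as were 11 of 15 genes of the serum response factor axis and all 17 stress genes. The largest of the stress genes were Hspa1a (-1.16) and Hspa1b (-1.12), inducible heat shock proteins. On western diet 30 of 45 further contractile genes were higher, with a median of 0.10, as were 12 of 17 stress genes. With the limit of 3 per 1000, 16 of 17 stress genes were still lower in LysM-DKO on normal diet, while the further contractile genes had a median of -0.02 on both diets. The part of the stress genes in the members' differences was not tested.

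The western libraries were then set beside the normal-diet libraries of the same genotype label. These contrasts share libraries with the genotype contrasts and with it the differences in ApoE genotype, sex and software. In WT Rgs5-low smooth muscle 19 members were higher on western diet (51.1% of all genes were) and 13 lower, with a median log2 ratio of 0.05 and 0 past 1.5 fold, against 11.4% of all genes higher and 15.9% lower past it. Tagln (0.57, 0.56 to 0.58), Itga8 (0.49), Tpm2 (0.42) and Cnn2 (0.42) were highest and Flna (-0.35), Aoc3 (-0.26), Actn1 (-0.17) and Tpm1 (-0.11) lowest. In LysM-DKO 31 members were higher (52.6% of all genes were), with a median of 0.60, and 19 were past 1.5 fold higher and 0 lower, against backgrounds of 13.4% and 19.0%. Itga8 (1.10, 1.07 to 1.13), Des (0.97), Actg2 (0.85) and Tagln (0.81) led, and Pln (-0.46, -0.68 to -0.24) was the exception. With the limit of 3 per 1000 the WT median was 0.02, with 17 members higher, as were 5907 of 11120 genes. At that limit the LysM-DKO median was 0.09 and 2 members were past 1.5 fold, Itga8 higher (0.63) and Pln lower (-1.16), against 8.7% and 9.44%. LysM-DKO normal, the library with 51.3% low-share barcodes, is 1 side of this contrast.

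In Rgs5-high smooth muscle the western ratios were smaller. The median log2 ratio was -0.08 in WT, where 12 members were higher (52.3% of all genes were) and Actg2 (0.61) passed 1.5 fold, against 10.5%. It was 0.10 in LysM-DKO, where Des (0.60) was past 1.5 fold higher and Pln (-0.82) past it lower, against 7.72% and 11.2%. With the limit of 3 per 1000 the medians were -0.02 in WT and 0.05 in LysM-DKO. In all 4 contrasts of diet, with and without the limit of 3 per 1000, 9 members were higher on western diet, as were 22.9% of all genes: Acta2, Tagln, Tpm2, Actg2, Itga8, Vcl, Filip1l, Ldb3 and Cnn2. With the limit, 6 were lower in all 4 (Myl6, Tpm1, Flna, Actn1, Nexn and Aoc3), as were 23.7% of all genes, and without it 0, against 21.9%. The 9 higher members lie near the share of all genes and the 6 lower ones below it, so the names are given as a description. The lower group includes Flna, which lies on the X chromosome (chrX:74223461-74249820, minus strand), and the part of sex in its difference was not tested. In Rgs5-low smooth muscle stress genes were lower on western diet in WT, 15 of 17 with 10 past 1.5 fold, among them Nr4a1 (-1.59) and Atf3 (-1.50). In LysM-DKO 9 of 17 were lower, and 14 of 17 with the limit of 3 per 1000.

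In modulated cells and fibroblasts, whose rule allows at most 2 UMIs of Myh11 and Cnn1, the members were lower than in Rgs5-low smooth muscle, which the rule itself partly sets. All 32 were lower in both classes in all 4 libraries (30.2% of all genes were lower throughout in modulated cells and 29.5% in fibroblasts). The exception to a difference past 2 fold in all 4 libraries was Cacna1c in both classes, against backgrounds of 4.35% and 4.74%. The median log2 ratio was -2.72, -2.42, -3.04 and -3.37 in modulated cells and -2.68, -2.46, -3.51 and -3.38 in fibroblasts. In the western libraries the most reduced member in modulated cells was Myl9, with log2 ratios of -4.70 and -5.03, and Acta2 was at -4.15 and -4.80. Among the members that stayed nearest to smooth muscle were Cnn2, a calponin also made by non-muscle cells (-1.32, -1.33, -1.31 and -1.30), Vcl, the adhesion protein vinculin (-1.64, -1.47, -1.43 and -1.70), Myl6 (-1.76, -1.35, -1.91 and -2.23) and Cacna1c (-0.78, -1.08, -1.81 and -2.08), the last from 15 to 51 UMIs in modulated cells.

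The remaining levels were set beside those in lymphocytes (at least 2 UMIs of Cd3 or Cd79 genes), a cell type that lacks the smooth muscle apparatus, so that its UMIs of muscle genes such as Acta2 give a level of free RNA. Myl6, Flna, Cnn2, Actn1 and Vcl are also made by non-muscle cells, and for them the lymphocyte level can include the cells' own RNA. The members made up 0.911%, 0.921%, 0.375% and 0.610% of lymphocyte UMIs, against 0.871%, 0.866%, 0.691% and 0.629% in modulated cells and 0.874%, 0.865%, 0.560% and 0.643% in fibroblasts. In macrophages they made up 0.644%, 0.718%, 0.379% and 0.491%, so modulated cells lay above macrophages in all 4 libraries, whereas they lay below lymphocytes in both normal-diet libraries, above them in WT western and close to them in LysM-DKO western (384 member UMIs in lymphocytes). Modulated barcodes were deeper, with medians of 4480, 4172, 5633 and 4506 UMIs against 3374, 3305, 2485 and 2697 in lymphocytes. The part of depth in these shares was not tested. Acta2 stood at 1735, 1446, 1008 and 681 CPM in modulated cells and at 2347, 2102, 662.6 and 1160 in lymphocytes. In WT western 26 of the 30 members with at least 50 UMIs over both classes were higher in modulated cells than in lymphocytes (54.6% of all genes were) and 21 past 1.5 fold, against 38.8%, with a median log2 ratio of 0.89. In WT normal 11 of 26 were higher (44.2% of all genes) with 3 past it (28.9%), and in LysM-DKO normal 7 of 28 (42.8%) with 1 past it (26.5%). In LysM-DKO western, where only 21 lymphocytes were found, 9 of 22 were higher (63.1%) with 3 past it (47.4%). Of these 30, the members furthest above lymphocytes in WT western were Cacna1c (log2 ratio 2.05), Vcl (2.04), Myocd (1.79) and Cald1 (1.77). Cacna1c passed the limit of 50 UMIs through the modulated class, which held 51, and was found in 0.84% of the lymphocytes. Myocd was found in 2.8% of them, so both ratios rest on few lymphocyte UMIs. Cald1 and Vcl stood above the lymphocyte level in all 4 libraries: Cald1 at 667.7, 672.1, 611.9 and 793.4 against 398.3, 441.6, 178.8 and 349.5, and Vcl at 126.3, 115.1, 194.3 and 171.3 against 77.94, 83.76, 47.27 and 79.44. Fibroblasts stood above it too, with Cald1 at 730.3, 680.5, 669.2 and 797.7 and Vcl at 112.8, 120.2, 158.3 and 157.1. The last lymphocyte level of Vcl rests on 23.8% of 21 barcodes.

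**Figure D5:**
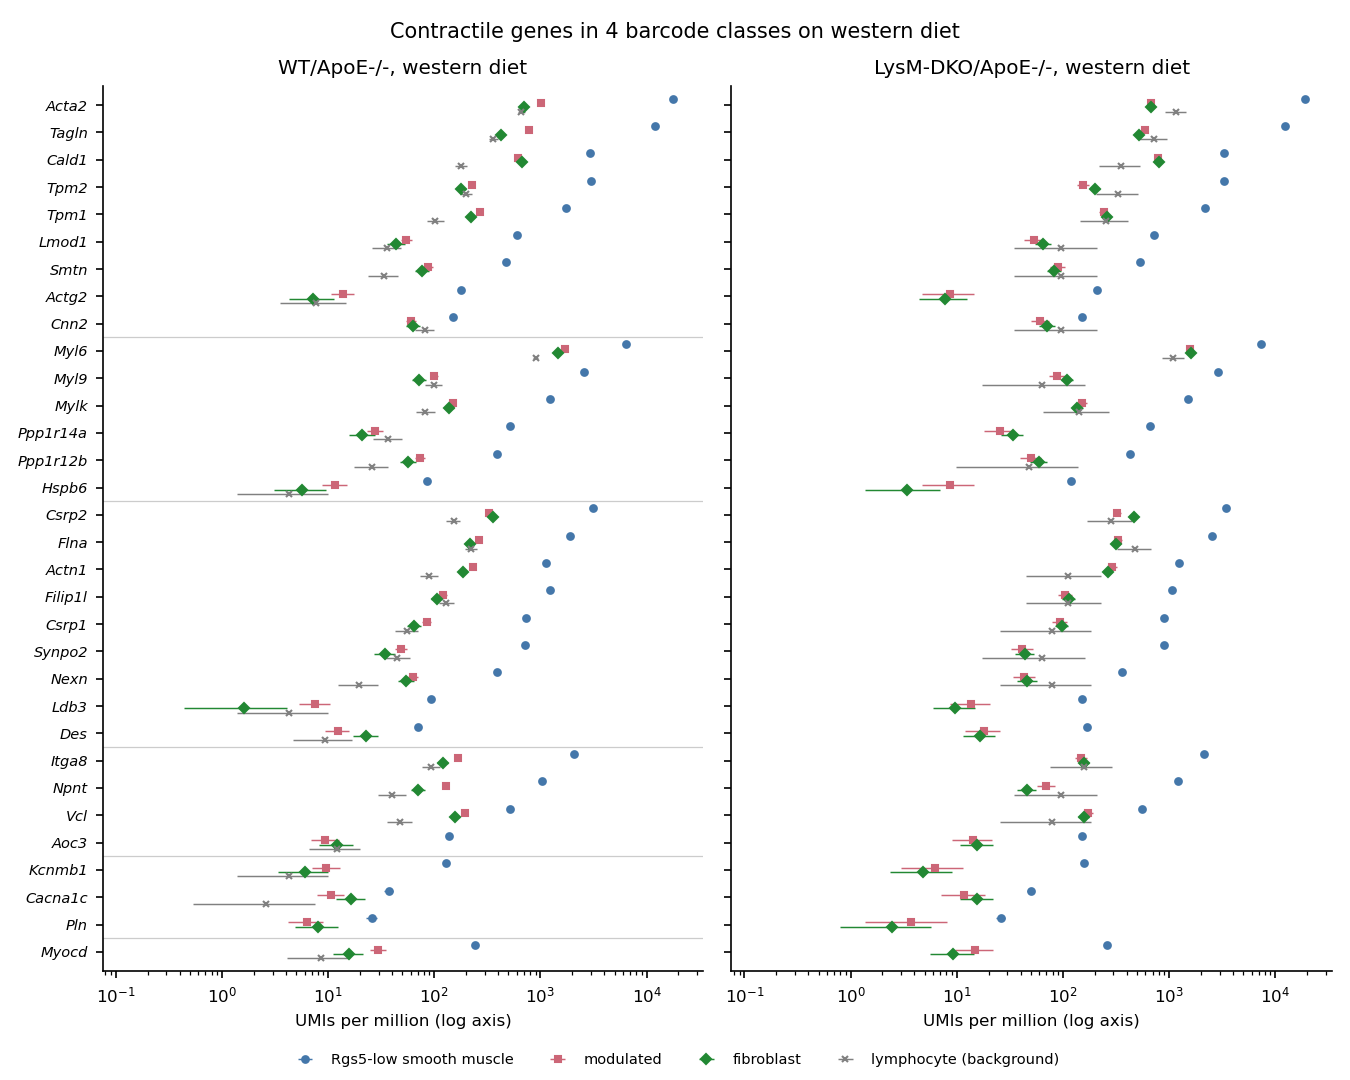
CPM (log axis, bars for exact 95% Poisson intervals) of the members in Rgs5-low smooth muscle, modulated cells, fibroblasts and lymphocytes of the 2 western libraries, for members with at least 3 UMIs. In WT western the modulated cells lie above lymphocytes for 26 of 30 members, whereas in LysM-DKO western, with 21 lymphocytes, they lie above for 9 of 22.

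Modulated cells and fibroblasts were close to each other. In WT western 24 of 31 members were higher in modulated cells (39.6% of all genes were), with a median log2 ratio of 0.32, and 6 were past 1.5 fold higher and 2 lower, against 2.66% and 5.11% of all genes. The 6 were Hspb6 (1.05, 0.19 to 2.01), Actg2 (0.93), Myocd (0.92), Tagln (0.90), Npnt (0.85, 0.61 to 1.10) and Kcnmb1 (0.67), and the 2 lower were Des (-0.87, -1.42 to -0.32) and Cacna1c (-0.63). Tagln stood at 786.7 in modulated cells and 421.4 in fibroblasts of that library, and at 596.6 and 521.9 in LysM-DKO western, where 9 of 26 members were higher (40.8% of all genes) and 1 passed 1.5 fold (3.17%), Npnt (0.60, 0.20 to 1.02). Npnt codes for the matrix protein nephronectin, a ligand of the integrin that Itga8 helps form. Among members with at least 50 UMIs over both classes, Npnt alone was past 1.5 fold above fibroblasts in both western libraries. Myocd (14.9 against 9.24 CPM) and Hspb6 (8.69 against 3.4) were also past it in LysM-DKO western, but with UMIs under that limit. Myocd had 24 UMIs in modulated cells and 19 in fibroblasts there, and Hspb6 had 14 and 7. Both classes share 261 barcodes in WT western and 179 in LysM-DKO western, so these ratios compare overlapping sets. The ratios are of summed UMIs and can rest on a minority of barcodes. In thinned WT western barcodes the median member sum was 13 in modulated cells and 11 in fibroblasts, and the 95th percentile 49 and 24. In LysM-DKO western the medians were 12 and 12 and the 95th percentiles 24.4 and 23.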

How the data were processed

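Each of the 4 libraries was used as the deposited 10x matrix of UMI counts per gene and barcode. Per the file headers, Cell Ranger 6.0.1 wrote the deposited counts of both normal-diet libraries and 6.1.2 those of both western ones; the submitters' processing notes name Cell Ranger 6.1.2, Seurat 4.1.0 and mm10. Counting by strand is not given in the sources used here. Gene positions and overlaps come from the GRCm38 annotation, in which 32158 of 32285 features matched by identifier (99.6%).

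The UMI counts were summed per library and class after the barcode filters stated with the results. No doublet caller was run; shared markers are given instead. Nothing says that the libraries came from separate animals. Between groups, log2 ratios of CPM carry exact binomial 95% intervals, and a gene was called when it was past 1.5 fold (2 fold where modulated cells or fibroblasts were set against Rgs5-low smooth muscle) with at least 50 UMIs over both sums. Rgs5-high and Rgs5-low sums were tested with edgeR 4.0.16 (quasi-likelihood, TMM, library as a block, which pairs the sums of 1 library, genes with at least 10 UMIs in at least 4 of 8 sums, Benjamini-Hochberg over all genes), with Rgs5 left out. On simulated data for this test with 14006 genes and 200 changed 2 fold, 88.5% were recovered and 7.81% of calls were false. The simulation gave all libraries the same expected rates and a fixed dispersion. Recovery of smaller changes, such as the members' median log2 ratio of 0.18, was not measured. Alternatives used DESeq2 1.42.0, R 4.3.3, Python 3.11.15, numpy 2.4.6, scipy 1.17.1 and pandas 2.3.3; figures used matplotlib 3.10.9.

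The members, classes and gene lists were chosen with earlier results of these data known, so counts over them are descriptions. All members are named by role; full values are given for the most abundant members of a role and for the 4 highest and 4 lowest in each comparison, and up to 4 genes per other list by size.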

Additional observations from a re-analysis of the deposited data

Results flagged for a closer look

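The direction of the whole set differed between the diets. In Rgs5-low smooth muscle the median log2 ratio of the 32 members in LysM-DKO against WT was -0.298 on normal diet and 0.173 on western diet. For 26 of the 32 members the 95% counting intervals of both diets lay on opposite sides of 0, as they did for 11.1% of all genes, and in Rgs5-high smooth muscle this held for 10 of 32, against 6.93% of all genes. Intervals narrow with a gene's UMIs, and genes were not matched on them. The difference between the diets was not tested, because each ratio rests on 2 libraries. With at least 3 Myh11 and Cnn1 UMIs per 1000 the medians were 0.010 and 0.028.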

How the results depend on the processing

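In the test of Rgs5-high against Rgs5-low smooth muscle, 0 members were called higher and 1 lower. Brackets give all genes called in either direction. The counts of members called higher were 6 with DESeq2 (541 of 13507), 6 with no low-count filter (1213 of 23592) and 3 with Myh11 and Cnn1 at least 10 (793 of 13157). They were 5 without mixed and top 5% barcodes (750 of 12856), and 2 at both 2 and 3 Myh11 and Cnn1 UMIs per 1000 (709 of 13128 and 728 of 12915). Those called lower were 2 at Myh11 and Cnn1 of at least 10, 2 without mixed barcodes, 2 at 2 per 1000, 7 at 3 per 1000 and 0 without the library block, which pairs the sums of 1 library. The block itself mattered for the number of genes called: 262 with it and 13 without it. Fits that left out 1 library called 0 to 0 members higher and 1 to 1 lower, with 4 genes called without WT normal, 192 without LysM-DKO normal, 738 without WT western and 63 without LysM-DKO western. The adjusted p of Pln ranged from 1.3e-10 with DESeq2 to 0.053 without the block.

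Between libraries, the counts of members that moved were as follows. For LysM-DKO against WT on normal diet in Rgs5-low smooth muscle, 4 members were past 1.5 fold with at most 5% mitochondrial UMIs (2 as reported), and 15 were lower at 3 per 1000 (29 as reported), where the median reversed from -0.298 to 0.010. On western diet the number lower, 2 as reported, was 4 with at least 4000 UMIs per barcode, 5 at Myh11 and Cnn1 of at least 10, 5 without mixed barcodes, 13 at 3 per 1000 and 8 at 2 per 1000, and 1 member was past the fold at either limit per 1000. For western against normal diet in WT, 6 members were past the fold and 2 lower after thinning, and 3 and 3 with equal weight for each cell (0 and 13 as reported). In LysM-DKO, the number past the fold, 19 as reported, was 9 with at least 4000 UMIs, 2 at Myh11 and Cnn1 of at least 10, 3 without mixed barcodes, 10 with median-ratio scaling, 2 at 3 per 1000 and 3 at 2 per 1000. The number lower, 1 as reported, was 6, 4, 10 and 4 at Myh11 and Cnn1 of at least 10, without mixed barcodes, at 3 and at 2 per 1000. The cause of these changes was not tested beyond the make-up of the barcodes left out. The share of all genes past the fold is not given for each setting, so these counts describe only how the members moved. The other counts of members in the Rgs5-low, modulated, fibroblast and edgeR comparisons, 136 in number, stayed within 1.5 times. Counts in the genotype and diet contrasts of Rgs5-high smooth muscle are not among these. There the number lower in LysM-DKO on western diet moved further, to 5 at 3 per 1000. Pln rests on 64 to 369 UMIs per sum, the fewest among the members called.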

Other observations

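Among the genes called between Rgs5-high and Rgs5-low smooth muscle were many Hox genes, which give cells their position along the body axis. This family was singled out after its values were seen. Of 24 Hox genes tested, edgeR called 16 higher in Rgs5-high smooth muscle and 0 lower. The genes of the 9 and 10 groups, which mark posterior position, were among them with log2 ratios of 4.18 for Hoxc10 (SE 0.378, edgeR adjusted p = 0.0064), 3.56 for Hoxa10 (SE 0.338, edgeR adjusted p = 0.0074) and 3.29 for Hoxa9 (SE 0.269, edgeR adjusted p = 0.0050). Hoxa5, of a more anterior group, had a log2 ratio of 0.80 (SE 0.073, edgeR adjusted p = 0.0064). The count of called Hox genes was 5 without the library block, 1 without the WT normal library, 6 without the LysM-DKO western library, 5 of 19 tested with every barcode thinned to 2000 UMIs and 8 of 21 tested with at most 5% mitochondrial UMIs. In the same test the matrix gene Fn1, which codes for fibronectin, was higher in Rgs5-high smooth muscle (log2 ratio 1.15, edgeR adjusted p = 0.020), and Gsn, which codes for the actin-severing protein gelsolin, was lower (-0.80, edgeR adjusted p = 0.038).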
